A study of Mus musculus with 6 samples.

Results

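The Rab GTPase genes were taken from the deposited gene table by their symbols, as every gene named Rab with a number and at most a short letter or number suffix. The table held 59 such genes among 23281. Of these, 41 had a mean of at least 100 reads over the libraries and were tested, together with all 11462 genes of the table that met the same minimum. Nuclear RNA was measured by SLAM-seq in mouse embryonic stem cells, with 1 library for each washout time of 0, 30, 60, 90, 120 and 150 min. In SLAM-seq, cells take up 4-thiouridine (4sU), and RNA made in that window is recognised by T>C conversions, T in the genome read as C. The cells were female 129S x Cast hybrids in which a TetOn promoter drove endogenous Xist from the 129S allele, with Bgl stem-loops at the 3' end of Xist. All 6 cultures, the 0 min control included, had doxycycline at 1 µg/ml for 17.5 to 20 h and 500 µM 4sU for 4 h. By their labels they then differed in the time back in medium with doxycycline only ("Dox_only"). Uridine at 50 mM is listed for all 6 cultures, 0 min included. Total time in doxycycline may thus have risen with washout time, and the effects of these times cannot be told apart. Feeder cells were pre-plated away before nuclei were prepared.

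Rab proteins are small GTPases of the Ras superfamily that give each membrane of the cell an identity and direct vesicle budding, transport and fusion. Each cycles between a GTP-bound form that recruits effectors and a GDP-bound form, driven by exchange factors and GTPase activating proteins. Rabs are held on membranes by geranylgeranyl groups and are extracted by GDP dissociation inhibitor (GDI). Most cell types need the Rabs of the early secretory pathway, the early endosome and the lysosome, while others serve secretion in neurons and exocrine cells or signalling at the primary cilium.

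The 3' untranslated regions (UTRs) of the fastest Rab RNAs, of Rab5b for its comparison with Rab5a, and of Rab1a, whose decline was not called, are shown by the same 7-base AU-rich motif, TATTTAT, because AU-rich 3' UTR elements are textbook sites of mRNA turnover. The motif was chosen after decay rates were known and was searched on the transcript strand only. Each line gives 30 bases from the GENCODE M21 transcript of mm10, 5′ to 3′, with the motif in capitals.
Rab33b, chr3:51495444-51495473, plus strand: tttcattttagTATTTATtaatcaaaacat
Rab40c, chr17:25883343-25883372, minus strand: aggctccccttTATTTATatggagaacatt
Rab3a, chr8:70758153-70758182, plus strand: agctatttattTATTTATtgaggatgtgcc
Rab23, chr1:33740087-33740116, plus strand: attcaaatttgTATTTATgacatcttgtag
Rab22a, chr2:173701915-173701944, plus strand: tttgtagtctaTATTTATgagaccattgct
Rab5b, chr10:128678983-128679012, minus strand: ctttcccatttTATTTATctggtaagagtt
Rab1a, chr11:20226420-20226449, plus strand: gagaaataataTATTTATttcggtgaaatt
Rab3a held 4 copies, and 3 of these overlapped one another; the last is printed. The 5 members with the shortest half-lives all held the motif, as did Rab1a, Rab2a, Rab11a and Rab18, for which no decline was called. Rab18 held the most copies of any member, 6, and its rate was -0.120 per h. Its GENCODE 3' UTR of 5774 nt is longer than its deposited gene length of 2257 nt. Whether the gene model that was counted holds these copies is thus not known. Over the 41 members, a decline was called for 8 of 18 with the motif (44.4%) and 7 of 23 without it (30.4%). Over all genes tested, with and without the motif together, it was called for 52.3%. Median decay rates of the members were 0.163 per h with the motif and 0.145 per h without it. Rab9, Rab39b and Rab5a, next in order of half-life, had no match in their 3' UTRs. Among all tested genes with an annotated 3' UTR, 31.1% held the motif, and the median rate was 0.323 per h with it and 0.210 per h without it. A match is a description of these letters and not of a working site, and its part in the rates was not tested. The RNA was nuclear, so these rates do not tell decay from export.

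Libraries held 18558073 to 28535162 reads. The time of each column was inferred from its prefix, and the 30 and 60 min libraries were out of order in their T>C rates. Summed over all genes, the T>C rate was 2.69% at 30 min and 4.11% at 60 min, against 4.05% at 0 min and 1.17% at 150 min. The labelled share, the authors' posterior mean of the labelled fraction of a gene's reads, was higher at 60 than at 30 min in 14 of 41 Rab members (34.1%) and in 47.1% of all genes tested. These 14 members included 12 of the 15 whose share fell and 2 of the other 26. Counts of called members are also given without the 30 and 60 min libraries. All 10 embryonic stem cell markers had a mean of at least 100 reads, at 2952 to 3500 CPM (read counts scaled to library size) in sum. Of 15 feeder fibroblast markers, 13 reached that minimum and 0 were at 0. Their sum was 847, 751, 808, 663, 969 and 723 CPM from 0 to 150 min. Of 5 neuron markers, 2 reached it, at 67.6 to 82.4 CPM in sum. What feeder RNA adds to the Rab values was not tested.

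The labelled share fell past the threshold in 15 of the 41 Rab genes and rose in 0, termed here losing or gaining label. The share is relative to all reads of a gene and is not an amount of labelled RNA. The 15 spanned every compartment, from the Golgi protein Rab33b at a half-life of 50.3 min to the exocytic Rab8b at 161 min. Their median half-life was 80.5 min. The other 26, among them the general secretory, endosomal and lysosomal Rabs Rab1a, Rab1b, Rab2a, Rab5c, Rab7 and Rab11a, had no slope past the threshold. Other endosomal Rabs, Rab5a, Rab9, Rab14, Rab22a and Rab35, were among the 15. By the same limma test with Benjamini-Hochberg adjusted p under 0.05, 52.3% of all genes fell and 1.19% rose, against 36.6% of the Rab members that fell. The decay rate is minus the slope of ln(labelled share) on time, and its median was 0.145 per h for the members and 0.247 per h for all genes tested. Each p measures scatter of 6 libraries around a line and not a spread between cultures. Without the 30 and 60 min libraries, 13 members fell and 1 rose, against 47.0% and 1.51% of all genes. With libraries weighted by the width of the posterior, 9 fell and 1 rose, against 25.7% and 1.61%. The 6 that fell without weights and missed the threshold with them were Rab5b, Rab8b, Rab9, Rab23, Rab35 and Rab40c. On the labelled abundance, the share multiplied by CPM, 12 members fell, and Rab5b, Rab8b and Rab30 missed the threshold. The percentage of all genes that fell on this measure was not counted. The RNA was nuclear, so decay and export were not told apart.

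**Figure D1:**
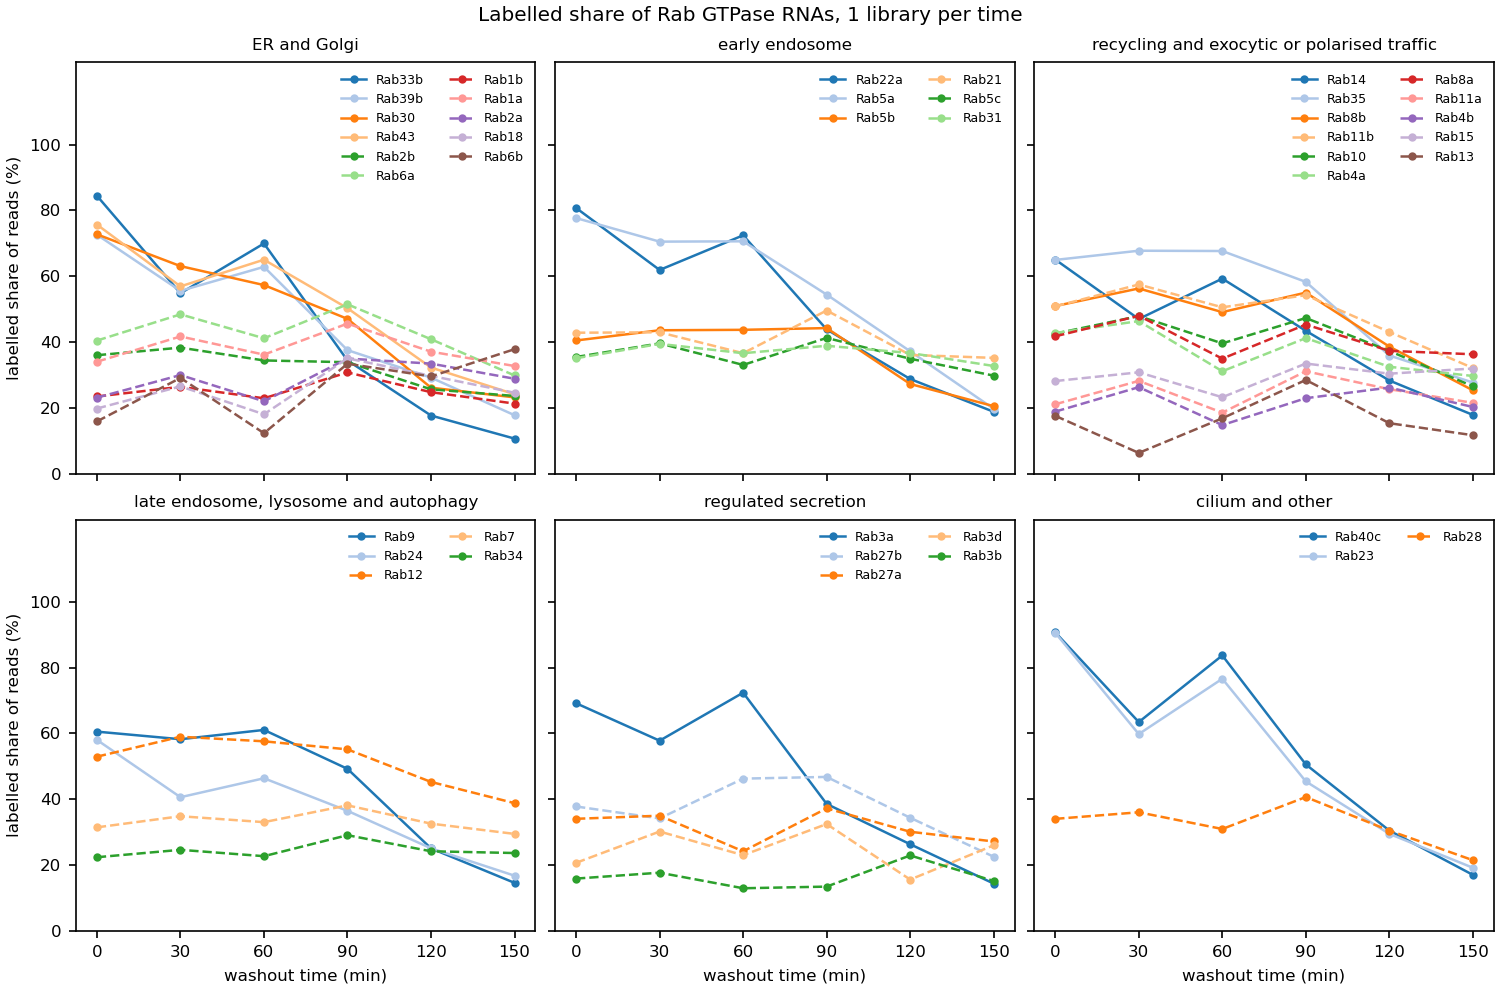
Labelled share of reads (%, vertical axis) against washout time (min, horizontal axis) for the 41 tested Rab genes, 1 panel per role, 1 point per library. Solid lines are the 15 genes whose share fell and dashed lines the 26 with no call; most solid lines start above the dashed ones and dip at 30 min.

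The labelled share at 0 min, after the 4 h pulse, differed widely among the members. It ranged from 15.8% for Rab6b to 90.7% for Rab40c, with a median of 72.6% over the 15 that fell and 34.0% over the other 26. The shares at 0 and 150 min both entered the fit that set these groups. Contrasts between the groups were therefore partly fixed in advance and are descriptions. The ranges overlapped, since Rab5b among those that fell started at 40.4% and Rab12 among the others at 52.9%. The share at 0 min and the decay rate fitted without the 0 min library had a Spearman rho of 0.924 across the 41 members, a description over genes that share the same libraries. At 150 min the medians were closer, at 18.8% for those that fell and 28.0% for the rest. The 90 min share was above the 0 min share in 25 of the 41 members (61.0%) and in 39.6% of all genes tested. If the labelled share at 0 min is read as uptake at steady state, the median half-life was 129 min for the members that fell, 400.2 min for the rest and 264 min for all genes tested. Uptake half-lives were longer than washout half-lives for the members that fell (medians 129 and 80.5 min). These members were selected by their washout decline, and the uptake half-life restates the 0 min share, so neither contrast is an independent test.

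Among 14 Rabs of the endoplasmic reticulum (ER) and Golgi, 11 were tested and 4 lost label. Rab33b, a Golgi Rab that also binds the autophagy protein Atg16l1, was labelled at 84.4, 54.8, 69.9, 34.4, 17.6 and 10.6% from 0 to 150 min. Its share at 150 min (posterior 5% to 95% range 7.57 to 14.1%) was below that of every earlier library. The decay rate was 0.827 ± 0.111 per h (SE; limma adjusted p = 5.17e-05). Rab43, a Golgi Rab, had the longest half-life of those that fell in this class, 94.7 min. Its shares were 75.7, 56.9, 65.0, 50.2, 32.2 and 24.1%, with the 60 min library above the 30 min one as for Rab33b. Between these lay Rab39b (76.6 min), whose gene is mutated in X-linked intellectual disability, and Rab30 (85.0 min), another Golgi Rab. Rab39b, like Rab9 below, lies on the X chromosome, and all cultures had the doxycycline that drives Xist. What this adds to their rates was not tested. On the labelled abundance, the share multiplied by CPM, Rab30 missed the threshold (adjusted p = 0.0766; over its alternatives 7.4e-07 to 0.0766). Rab1a and Rab1b, which direct traffic from the ER to the Golgi, had rates of 0.0181 and 0.0217 per h, neither past the test. Rab1a was the most read member per length, at 81.3 CPM per kb, and its shares were 34.0, 41.7, 36.1, 45.6, 37.0 and 32.7%. All of these lay within 13 percentage points of one another, with the 90 min library highest. Rab2a, Rab2b, Rab6a and Rab18, which act at the ER, the Golgi or lipid droplets, had no call either, at -0.120 to 0.190 per h.

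Rab6b, the brain-enriched relative of the Golgi Rab6a, had the most negative rate of the 41. Its shares were 15.8, 29.1, 12.3, 33.4, 29.5 and 37.8%, low at 0 and 60 min and higher in the other 4 libraries. The rate of -0.308 ± 0.127 per h missed the threshold (limma adjusted p = 0.0515). It passed as a gain without the 30, 60 or 120 min library (adjusted p = 0.00356, 0.00809 and 0.0338), with the 30 and 60 min times exchanged (5.88e-05), without both (0.00941) and with posterior weights (0.0388). Over all its alternatives the adjusted p ran from 5.88e-05 to 0.866. The highest was that of the labelled abundance, which was nearly level (-0.0269 per h), so a gain of labelled RNA was not shown. Its T>C rate, which needs no model of the label, was 1.64, 1.51, 2.05, 2.51, 1.61 and 1.98%, with no slope past the threshold (limma adjusted p = 0.658). Reads of Rab6b were few, 190, 107, 156, 93, 111 and 55, and the posterior range at 150 min was 25.1 to 51.1%. The slope of its total reads was -0.396 ± 0.105 on the log2 scale per h (edgeR adjusted p = 0.102).

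Of 7 early endosome Rabs, 6 were tested and 3 lost label. Rab22a, which works at early endosomes and in their link to the Golgi, was labelled at 80.7, 61.9, 72.4, 43.8, 28.7 and 18.8%. The last 3 libraries lay below the first 3, and the half-life was 72.1 min (rate 0.577 ± 0.0994 per h, limma adjusted p = 0.000197). Rab5a, Rab5b and Rab5c share the task of tethering and fusing early endosomes. Rab5a had shares of 77.7, 70.5, 70.6, 54.4, 37.2 and 19.7% and a half-life of 80.5 min. Rab5b had shares of 40.4, 43.5, 43.7, 44.2, 27.2 and 20.5%, nearly level to 90 min and lower after it. Its half-life was 152 min (0.274 ± 0.100 per h, limma adjusted p = 0.0306), and that call was lost without the 30, 120 or 150 min library (0.0619, 0.0848 and 0.390; range over its alternatives 0.00696 to 0.390). Its rate was 0.155 per h without the 150 min library, 0.272 without 30 min and 0.262 without 120 min. The call was also lost without both the 30 and 60 min libraries (0.0614), with posterior weights (0.168 per h, 0.228), on the labelled abundance (0.166 per h, 0.188) and with no read minimum (0.0758). Rab5c, the second most read member per length (66.1 CPM per kb), had shares of 35.4, 39.6, 33.0, 41.2, 34.9 and 29.8% and no call. Rab21, which carries integrins, and Rab31, which links the Golgi and endosomes, had no call.

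Recycling, exocytic and polarised traffic had 11 tested members of 13, of which 3 lost label. Rab14, between Golgi and endosomes, was labelled at 65.0, 47.0, 59.2, 43.4, 28.3 and 17.8% and had a half-life of 87.6 min. Its 120 and 150 min libraries were the lowest. Rab35, of fast endocytic recycling, had a half-life of 115 min, a call lost without the 150 min library (adjusted p = 0.118) and with posterior weights (0.223 per h, adjusted p = 0.128; range over alternatives 0.000334 to 0.128). Rab8b, of traffic to the plasma membrane, had shares of 50.9, 56.2, 49.1, 55.0, 38.6 and 25.3%, level to 90 min and lower after it. Its half-life was 161 min (0.258 ± 0.0992 per h, limma adjusted p = 0.0384), and the call was lost without the 30, 120 or 150 min library (0.0944, 0.0725 and 0.522; range over alternatives 0.0112 to 0.522). Its rate was 0.115 per h without the 150 min library, 0.247 without 30 min and 0.271 without 120 min. The call was also lost without both the 30 and 60 min libraries (0.0759), with posterior weights (0.139 per h, 0.299), on the labelled abundance (0.0736) and with no read minimum (0.0859). No slope passed for Rab8a, the recycling endosome Rabs Rab4a, Rab4b, Rab11a, Rab11b and Rab15, the exocytic Rab10, or Rab13 of epithelial junctions. Rab4b and Rab43 each share exonic sequence with a same-strand gene of the table, Gm21983 and Gm45140, so their reads are uncertain.

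In the late endosome, lysosome and autophagy class 5 of 11 were tested and 2 lost label. Rab9, which returns cargo from late endosomes to the Golgi, had shares of 60.5, 58.2, 61.1, 49.2, 25.1 and 14.6%. Its gene is X-linked, as is that of Rab39b. The first 3 libraries were level and the last was the lowest, for a half-life of 73.8 min (0.564 ± 0.113 per h, limma adjusted p = 0.000639). Rab24, an unusual Rab linked to autophagy, had shares of 58.0, 40.6, 46.4, 36.5, 25.1 and 16.8% and a half-life of 92.2 min. Rab7, the principal Rab of late endosomes and lysosomes, Rab12 and Rab34 had no call. Rab7 stayed within 29.5 to 38.1% in all libraries.

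Of 8 Rabs of regulated secretion, 5 were tested and Rab3a alone lost label. Rab3a, the synaptic vesicle Rab, had shares of 69.2, 57.8, 72.4, 38.6, 26.3 and 14.4%, with the last 3 libraries below the first 3. Its rate was 0.620 ± 0.110 per h, which corresponds to 67.1 min (limma adjusted p = 0.000245). It stood just inside the read minimum, with 91 to 136 reads a library and a mean of 117, and its exons overlap Mpv17l2 on the opposite strand. Of its relatives, Rab3b had shares of 15.9, 17.7, 12.9, 13.4, 22.9 and 15.2%, lower than Rab3a in 5 of 6 libraries. Rab27a and Rab27b, which dock secretory granules and melanosomes, had no call. Rab27b, the second least read per length (0.802 CPM per kb), had shares of 37.8, 34.2, 46.3, 46.8, 34.4 and 22.5%.

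At the primary cilium, Rab23, a negative regulator of Hedgehog signalling, was labelled at 90.6, 59.8, 76.6, 45.4, 29.5 and 19.2%, while Rab28 had no call. Only the 60 min library of Rab23 broke the downward order, and the half-life was 69.9 min (0.595 ± 0.101 per h, limma adjusted p = 0.000179). Rab40c, whose protein carries a SOCS box and serves in a ubiquitin ligase, was the tested member outside these roles. Its shares were 90.7, 63.5, 83.7, 50.6, 30.5 and 17.0%, a half-life of 65.7 min. With posterior weights Rab23, Rab40c and Rab9 missed the threshold (adjusted p = 0.0619, 0.0912 and 0.0676, each the highest over that gene's alternatives; the lowest were 7.06e-10, 7.87e-11 and 1.83e-08).

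**Figure D2:**
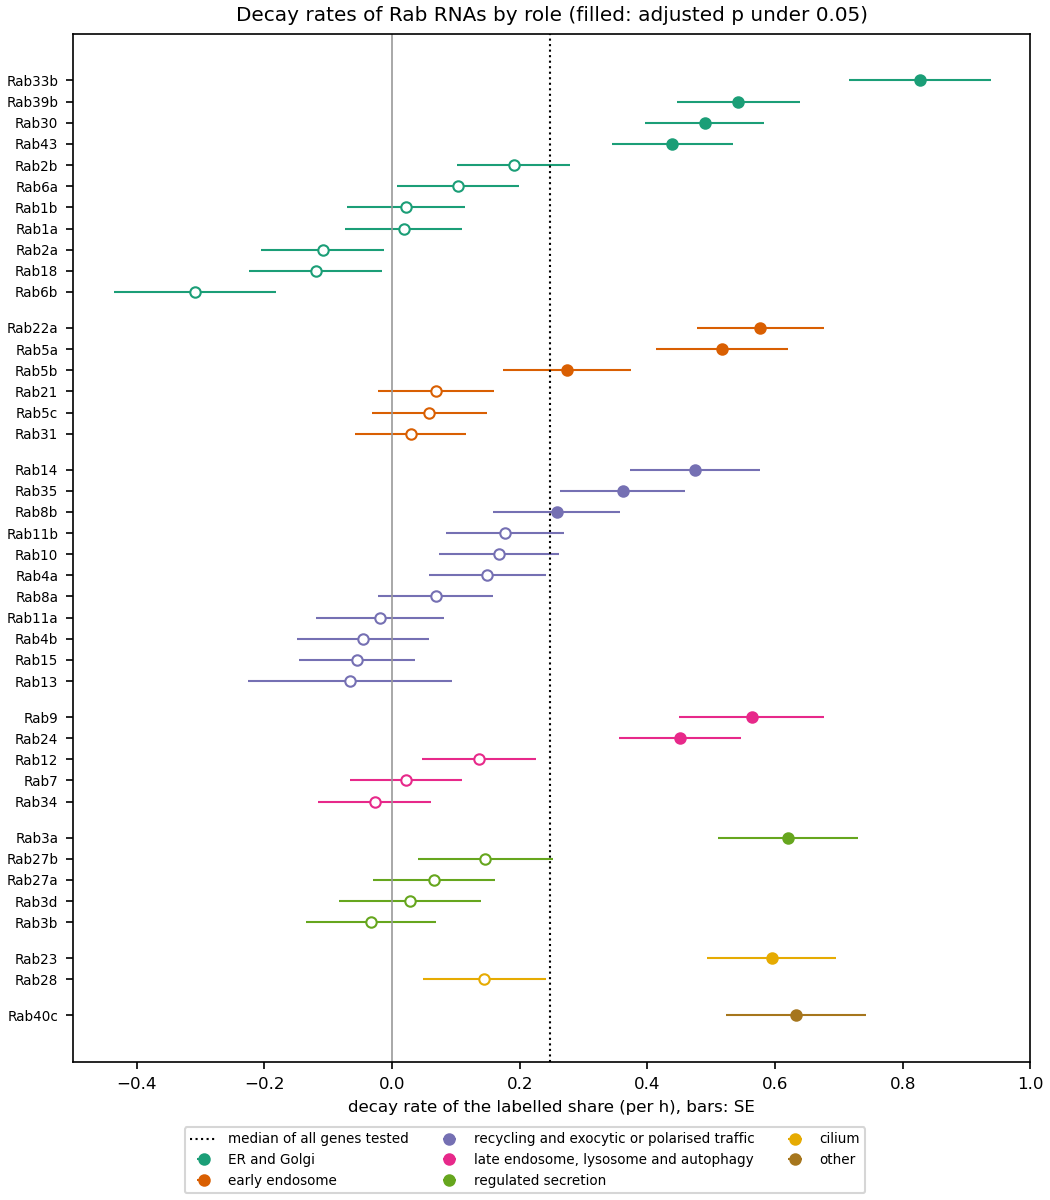
Decay rate of the labelled share (per h, horizontal axis) of each tested Rab gene, grouped by role; points are slopes over 6 libraries, bars their SE, filled points those with limma adjusted p under 0.05, and the dotted line the median of all genes tested (0.247 per h). All 15 filled points lie right of that line, and each class with at least 2 tested members also holds open points left of it.

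The raw T>C rate gave a similar order with higher rates. It fell in 21 of 41 members and rose in 0, against 66.9% of all genes that fell and 0.0% that rose. These were the 15 whose share fell and 6 more, Rab4a, Rab10, Rab11b, Rab12, Rab27b and Rab28. Rates from both measures had a Spearman rho of 0.969 across the 41 members, as a description. The median was 0.398 per h by T>C rate and 0.145 per h by share. For Rab33b the half-life was 36.6 min by T>C rate. Some members with a level share also had lower T>C rates at 150 than at 0 min, though no slope passed. At 0 and 150 min the rates were 3.37 and 1.60% for Rab1a and 3.95 and 1.57% for Rab5c. They were 3.20 and 1.53% for Rab7 and 3.34 and 1.46% for Rab31. The T>C rate of Rab6b, given above, did not drop between these libraries. Without the 150 min library the T>C rate fell in 7 members, against 23.7% of all genes. Without the 30 and 60 min libraries, an alternative added after seeing the data, it fell in 32 members, against 80.8% of all genes.

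Close paralogs were compared pair by pair, since they share a protein function. Of 24 listed pairs 14 had both genes tested. Each difference in rate was tested with a two-sided exact permutation test over the 720 orderings of the 6 times, whose smallest possible p is 0.00278, and adjusted over the 14 pairs. Rab5a lost label faster than Rab5b by 0.243 ± 0.0491 per h (exact permutation p = 0.00833, adjusted p = 0.0389). Rab5a also lost it faster than Rab5c, by 0.458 ± 0.0959 per h, with the same p values. At 0 min Rab5a was 77.7% labelled against 40.4% for Rab5b and 35.4% for Rab5c, and by 150 min Rab5c was the highest of them. Rab22a and Rab31 differed by 0.548 ± 0.0943 per h (exact permutation p = 0.00833, adjusted p = 0.0389). The share of Rab31 was level at 35.0, 39.4, 36.6, 38.8, 36.6 and 32.7%. That of Rab22a lay below it in the 120 and 150 min libraries. The 3' UTRs of Rab22a and Rab5b held the AU-rich motif, and those of Rab31 and Rab5a did not. What the motif adds to these rates was not tested.

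The other 11 pairs missed the threshold. Rab3a and Rab3b had the largest difference, 0.653 ± 0.204 per h (exact permutation p = 0.0389, adjusted p = 0.0972). Rab2a and Rab2b differed by -0.299 ± 0.0795 per h (adjusted p = 0.0972 in the same exact test). Rab1a and Rab1b had the closest rates, a difference of -0.00358 ± 0.0186 per h (exact permutation p = 0.839), although Rab1a was the more labelled in 6 of 6 libraries. The count of 3 passing pairs depended on the settings. It was 0 on the logit of the share, 6 on the T>C rate and 11 with the 30 and 60 min times exchanged. It was 5 without the 60 min library and 0 without any other single one, where 5 times allow no exact p under 0.0167. Over the alternatives the adjusted exact p of Rab5a against Rab5b ran from 0.0243 to 0.233, and that of Rab22a against Rab31 from 0.0194 to 0.233. Both differences stayed positive under the 11 alternatives run.

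**Figure D3:**
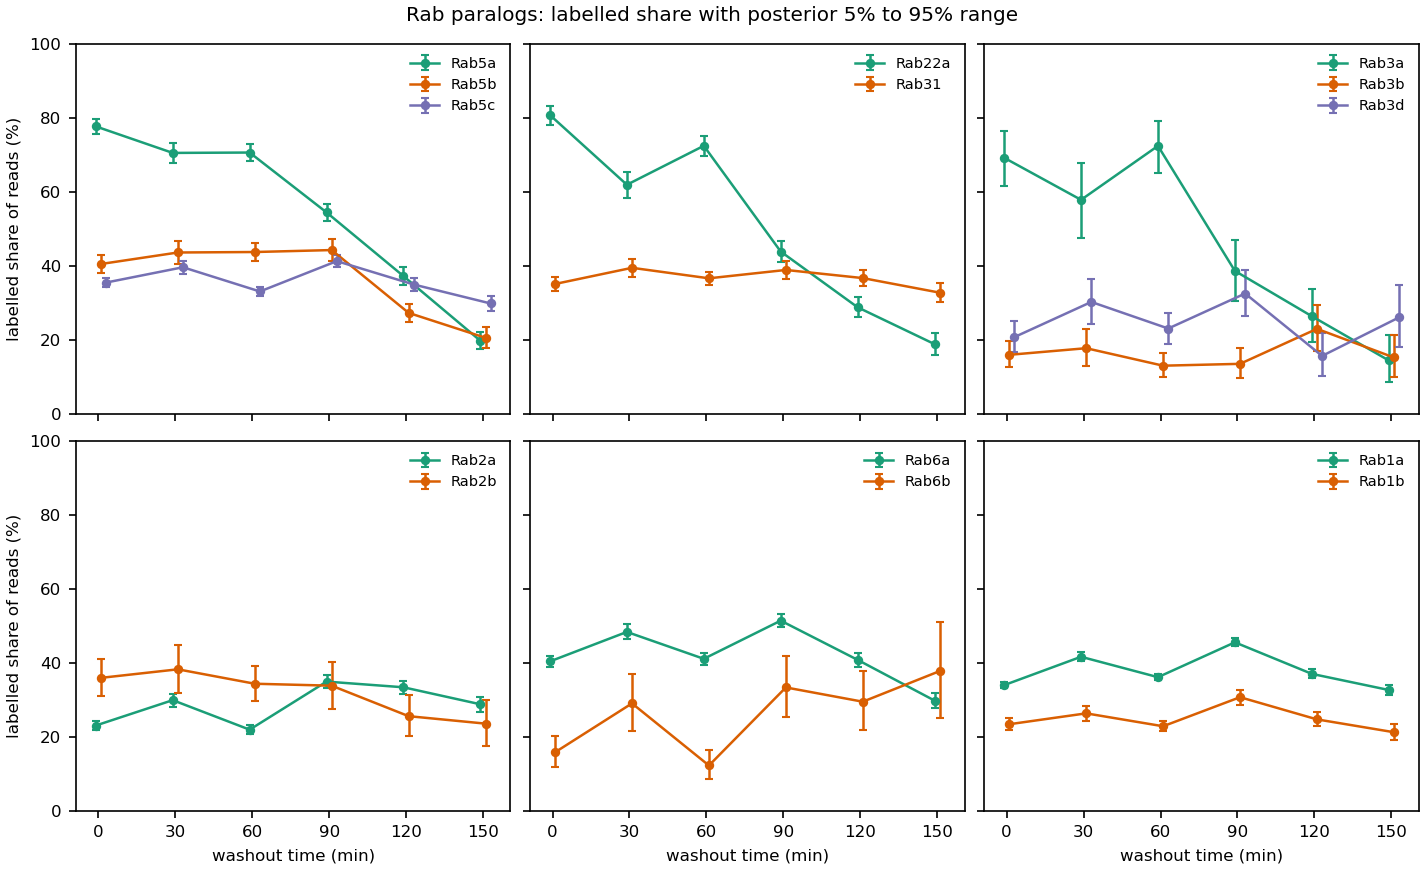
Labelled share of reads (%, vertical axis) against washout time (min, horizontal axis) in 6 sets of Rab paralogs; points are single libraries, shifted slightly sideways, and bars the posterior 5% to 95% range within a library. Rab5a and Rab22a start near 80% and drop under 20% at 150 min, while Rab5c and Rab31 stay between 29.8 and 41.2%; Rab1a and Rab1b run in parallel.

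Total reads of the Rab genes showed no slope past the threshold. By edgeR's quasi-likelihood test 0 of 41 members had an adjusted p under 0.05, against 0.0% of 15743 genes. At an unadjusted p under 0.05 there were 12 members, 8 of them with higher counts later, against 21.7% of the 15743 genes. DESeq2 called 0 members, against 2.24% of genes that fell and 1.99% that rose. At an unadjusted p under 0.05 it had 9 members, against 13.6% of 23281 genes. That base includes genes under the read minimum that the 41 members meet, so the 2 are not like for like. In bulk nuclei, fewer cells of a type and less RNA per cell cannot be told apart. Rab23 had the most negative slope of the 41, -0.41 ± 0.15 on the log2 scale per h (edgeR adjusted p = 0.164), with 76.4, 87.8, 118, 87.3, 51.8 and 42.2 CPM. Its 60 min library was the highest and its last 2 the lowest. Rab30, the least read member per length (0.592 CPM per kb), had the most positive slope, 0.39 ± 0.11 per h (edgeR adjusted p = 0.115), with 4.54, 4.66, 3.63, 5.60, 6.05 and 9.08 CPM. Its labelled shares were 72.7, 63.0, 57.3, 47.0, 26.1 and 23.1%, in falling order through all libraries. Of the 15 members that lost label, 13 had a positive slope of total reads, the exceptions being Rab23 and Rab40c. None of these slopes passed the threshold, and a positive slope was also found for 14 of the 26 members with no call and for 6035 of 11462 genes tested.

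The count of changes in total reads moved with the 60 min library. Without it edgeR called 3 members, Rab5a and Rab30 rising and Rab6b falling, against 5.06% and 4.13% of genes. Exchanging the 30 and 60 min times gave 10 called members. Rab5a, Rab5b, Rab10, Rab14, Rab22a, Rab30 and Rab33b rose and Rab6b, Rab15 and Rab23 fell, against 10.1% and 8.22% of genes. Without both libraries it called 0.

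**Figure D4:**
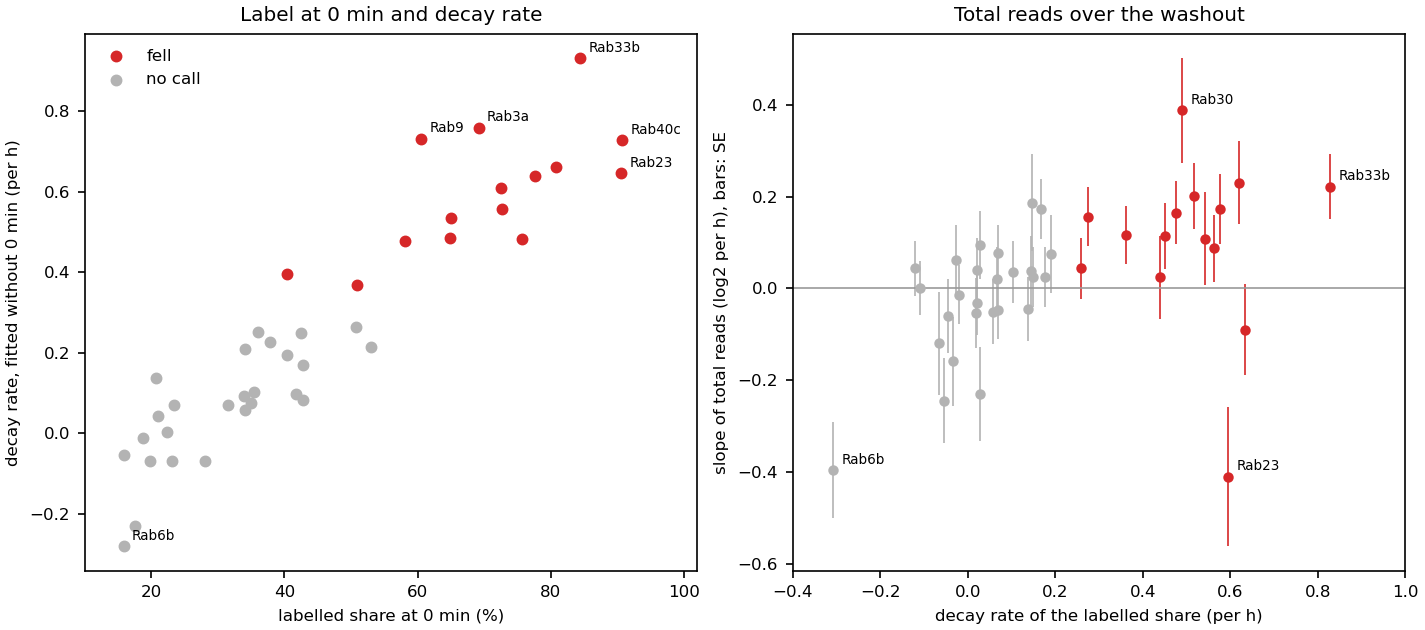
Left, decay rate fitted without the 0 min library (per h) against the labelled share at 0 min (%) for 41 Rab genes; right, slope of total reads (log2 per h, bars SE) against the decay rate of the share (per h). Red points are the 15 genes whose share fell and grey the 26 with no call; rate and 0 min share run together on the left, and Rab23 lies apart from the other red points on the right.

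The 18 members under the read minimum had means of 2.67 to 96.5 reads and were not tested. They were Rab3c, Rab7b, Rab9b, Rab17, Rab19, Rab20, Rab25, Rab26, Rab29, Rab32, Rab33a, Rab36, Rab37, Rab38, Rab39, Rab40b, Rab42 and Rab44. Many are known from neurons, platelets, melanocytes or epithelia. Rab26, at 96.5 reads, lay just outside the minimum, and Rab3a and Rab6b, at 117 and 119, just inside. Annotated exons of Rab6a, Rab24, Rab2b and Rab5a overlap those of Mrpl48, Prelid1, Tox4 and Pp2d1 on the opposite strand. Whether reads were shared there depends on the strand setting of the counting, which is not stated. Neither gene span nor 3' UTR length followed the decay rate closely over the 41 members (Spearman rho -0.17 and 0.0847, as descriptions), nor did mean reads (rho -0.11).

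Of 129 tested genes that serve the Rab cycle, 71 lost label (55.0%), against 52.3% of all genes, and 0 gained it. Without the 150 min library the count was 39, against 31.3% of all genes. Without the 30 and 60 min libraries, also added after seeing the data, it was 64, against 47.0%. Of 8 genes for prenylation and GDI, 3 fell. Rabif, a chaperone that stabilises Rabs, had a half-life of 61.6 min, Rabggtb, the catalytic subunit of Rab geranylgeranyl transferase, 68.2 min, and the escort protein Chml 143 min. The partner subunit Rabggta (0.120 per h) and the inhibitor Gdi2 (-0.0330 per h) had no call. Among 46 exchange factors 27 fell, with Smcr8 of the C9orf72 complex (52.9 min) and Dennd2c (55.4 min) the fastest and Trappc12 (148 min) and Trappc9 (173 min) the slowest. Of 38 GTPase activating proteins 21 fell, from Tbc1d25 (53.4 min) and Tbc1d9 (62.9 min) to Tbc1d15 (165 min) and Rab3gap1 (173 min). Of 37 effectors 20 fell, from Vps18 of the tethers that act with Rab5 and Rab7 (54.2 min) and the Rab5 effector Rbsn (57.0 min) to Vps11 (146 min) and Rab11fip2 (152 min). Median decay rates were 0.119 per h for prenylation and GDI, 0.299 per h for exchange factors, 0.253 per h for activating proteins and 0.285 per h for effectors. Total reads of 0 of these 129 genes passed edgeR.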

How the data were processed

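Nuclear SLAM-seq RNA was read in stranded total RNA libraries (1 µg RNA, paired ends of 81 nt). Reads were aligned with STAR 2.5.2b to mm10, per the submitters' processing notes. For the gene table, the program, annotation and strand setting are not given in the sources used. The deposited table held read counts per gene, not normalized, and T>C conversion and coverage counts rounded to 4 significant digits. A labelled fraction, with posterior mean, mode and 5% and 95% quantiles, was also deposited by the authors. The 18 columns of posterior parameters and of reads with several conversions were not used. Column times were inferred: each column's prefix was read as the washout time of a title without its shared ending, and the columns without a prefix as 0 min.

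With limma 3.58.1, ln(labelled fraction) or ln(conversions over coverage) was regressed on time for genes averaging 100 or more reads, leaving 4 residual degrees of freedom. Half-life was ln 2 over the rate. Slopes of the counts came from edgeR 4.0.16 (TMM scaling, quasi-likelihood) and, as an alternative, DESeq2 1.42.0, in R 4.3.3. Adjustment was by Benjamini-Hochberg over all genes tested, with a threshold of 0.05. The fits of share and of reads were also run on simulated data. Noise there was independent between genes, so shifts shared by a whole library were not covered. Gene IDs were matched to GENCODE M21 (23223 of 23281); levels per length used the table's gene length.

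The members, lists, roles and tests were chosen with earlier results of these data known. Library values were given for the shortest and longest half-life in each role, for both genes of each passing pair and of the pair with the largest difference, and for the 2 most and 2 least read members per length. From each list of Rab regulators the 2 shortest and 2 longest half-lives were named. Rab6b and other values outside that rule were chosen after they were seen. Alternatives covered each library left out, exchanged 30 and 60 min times, other measures of label, weights, read minimums and scalings.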

Additional observations from a re-analysis of the deposited data

How the results depend on the processing

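No paired analysis was possible because every washout time is a single library. Of 15 Rab members that lost label, 8 kept the call under every alternative of the labelled share in which they were fitted. The other 7 lost it under at least 1. Rab3a and Rab39b, among the 8, were not fitted at the minimum of 300 reads. No called slope changed sign. The count of declines was 9 with posterior weights, 12 on the labelled abundance and 12 to 15 with 1 library left out. The count of gains was 0 in the fit reported, 1 with exchanged 30 and 60 min times, 1 without both of those libraries, 1 with posterior weights, and 0 to 1 with 1 library left out. The median decay rate was 0.398 per h on T>C rates, 0.069 per h with posterior weights, and 0.0561 (without 150 min) to 0.210 per h (without 0 min) with 1 library left out. Declines of the T>C rate numbered 7 to 29, calls on total reads 0 to 3 and declining Rab regulators 39 to 76 with 1 library left out. Without both the 30 and 60 min libraries, added after seeing the data, declines of the T>C rate numbered 32. Exchanged times gave 10 calls on total reads. Passing paralog pairs numbered 0 on the logit, 6 on T>C rates, 11 with exchanged times and 0 to 5 with 1 library left out; without both libraries the smallest exact p is 0.0833, so no count was made. The causes were not tested. Depth limits the least read members: at 55 reads, the 150 min share of Rab6b had a posterior range of 25.1 to 51.1%.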
